A study of Mus musculus with 6 samples.

Results

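The 39 Hox genes of the mouse were followed in RNA-sequencing libraries of differentiating C2C12 cells, an immortalized mouse myoblast line that fuses into myotubes when serum is withdrawn. The members were every gene of the count table named Hoxa, Hoxb, Hoxc or Hoxd with a number, which gave 39 of 46078 listed genes. The samples were 3 libraries labelled KO, from cells edited with CRISPR-Cas9 and a guide RNA against Hnrnpa2b1, and 3 libraries labelled WT, all from the same parental line, all grown for 24 hours and then differentiated for 2 days. The study describes 3 independent KO and WT clones, picked after transfection and puromycin selection. It reports that the knockout was checked on the protein by immunofluorescence and Western blotting. A figure legend names control cells treated with a scrambled guide sequence. Which clone gave which library is not given in the sources used here, so the replicates may be separate clones or cultures of fewer clones. KO and WT stand here for the libraries that carry those labels, and the p-values measure the spread between these libraries only.

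Hox genes encode homeodomain transcription factors that give cells their position along the head-to-tail axis and along the limb. They lie in 4 clusters, HoxA to HoxD, and each gene belongs to 1 of 13 paralog groups, numbered from the anterior end of the cluster (group 1) to the posterior end (group 13). Genes at the anterior end are switched on early and toward the head, and genes at the posterior end late and toward the tail, the distal limb and the urogenital tract. Cells derived from adult tissues often keep a Hox pattern that reflects where they came from. Polycomb complexes keep silent clusters off, trithorax complexes keep active ones on, and TALE homeodomain proteins (the Meis, Pbx and Pknox families) bind DNA together with Hox proteins.

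The libraries held between 33605258 and 40558740 counts assigned to genes, with ranges that overlapped between KO and WT. Hox genes took 175 to 234 CPM (the counts-per-million scale, here on uncorrected totals) in each library. RNA of the targeted gene itself, Hnrnpa2b1, was at 159, 195 and 249 CPM in KO (from here on TMM-scaled library sizes) and at 225, 229 and 252 CPM in WT, with a log2 fold change of -0.23 (SE 0.18, adjusted p = 0.381, edgeR). Its RNA level therefore did not separate the groups and gives no check of the labels, since an edit that ends the protein need not remove the RNA. Markers of skeletal muscle were present in every library, with desmin (Des) at 1163 to 2769 CPM and myogenin (Myog) at 1005 to 1709 CPM, whereas the 3 endothelial markers (Pecam1, Cdh5 and Tek) summed to 0.140 to 0.674 CPM. The 3 immune markers summed to 2.20 to 3.41 CPM in KO and 1.92 to 2.40 CPM in WT, nearly all of it Cd68 at 61 to 124 counts, with Ptprc at 0 to 5 counts and Cd3e at 0 in each library. Not all markers of other cells were low. Fibro-adipogenic markers summed to 53.2 to 157 CPM in KO and to 18.8 to 32.5 CPM in WT. Schwann or neural markers summed to 12 to 28.5 CPM in KO and to 2.03 to 3.29 CPM in WT.

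All genes of the HoxA and HoxC clusters were expressed and no gene of HoxB or HoxD was. With expression set at 10 or more counts in at least 3 libraries, 20 of the 39 Hox genes passed, which were 11 of 11 in HoxA, 9 of 9 in HoxC, 0 of 10 in HoxB and 0 of 9 in HoxD. Of all genes in the table, 32.3% passed the same rule. HoxA and HoxC together held 99.86% of the Hox counts of the 6 libraries. Between them the expressed members covered each of the paralog groups 2 to 13.

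**Figure D1:**
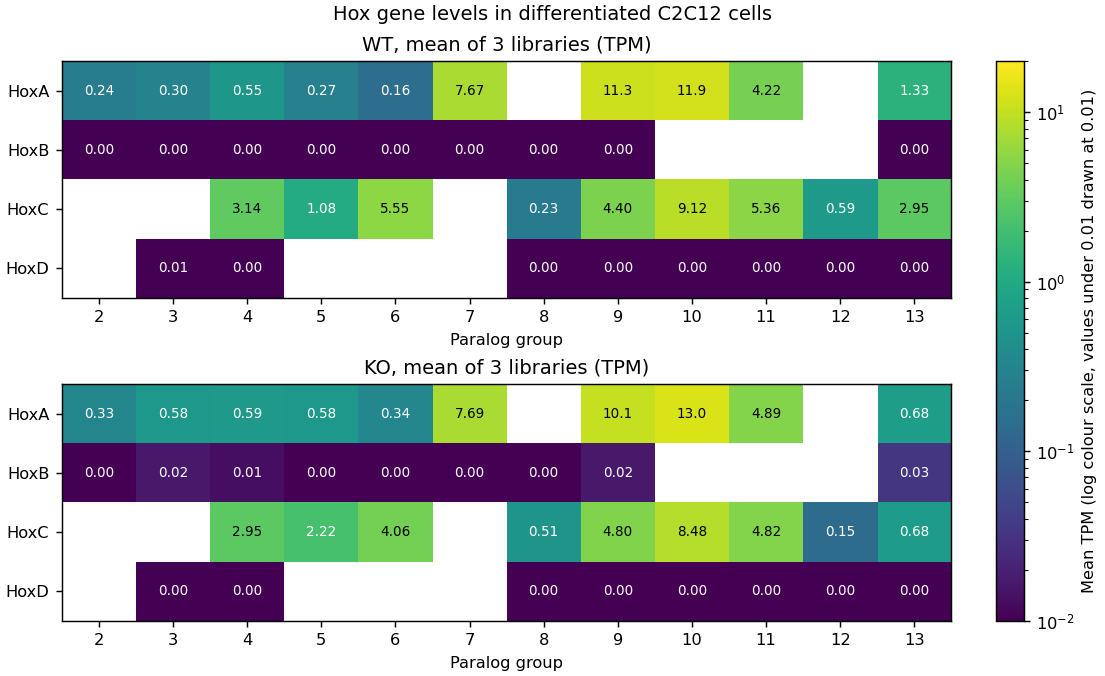
Mean TPM (length-corrected transcript level, n = 3 libraries) of the Hox genes of paralog groups 2 to 13 in WT and in KO, by cluster (rows) and paralog group (columns), on a log colour scale. White squares are paralog groups that the cluster lacks, HoxA and HoxC are lit across their length, and no HoxB or HoxD gene reaches a mean of 0.1 TPM.

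The silent clusters lay close to a count of 0. Of the 19 genes under the limit, 16 had at most 3 counts in every library and 5 had 0 in every library (Hoxb2, Hoxb7, Hoxd4, Hoxd8 and Hoxd9). A count of 0 allows up to 3 counts, which is 0.0740 to 0.0893 CPM of the uncorrected library size, so levels under that were not detectable at this depth. The other 3 genes were Hoxb13, Hoxb9 and Hoxb4, and each was above 3 counts in KO library 1 only. Hoxb13, the most posterior gene of HoxB and the one just outside the limit, had 13, 0 and 1 counts in KO and 0, 0 and 2 in WT. Hoxb9 had 8 counts in that library and Hoxb4 had 6. In the whole HoxB cluster KO library 1 had 32 counts, against 2 in each of the other KO libraries and 4, 1 and 4 in WT. The highest HoxD count was 3. Just inside the limit were Hoxa6, with 21, 27 and 32 counts in KO and 6, 10 and 16 in WT, and Hoxc12, with 15, 10 and 8 in KO and 56, 46 and 38 in WT.

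Levels differed widely among the expressed members, and TPM (the transcripts-per-million scale), which corrects for transcript length, was used to order them. In WT the highest was Hoxa10, a gene of the lumbar and proximal limb program, at 11.9 ± 0.71 TPM (SD, n = 3), followed by its neighbour Hoxa9 at 11.3 ± 0.67 and its HoxC paralog Hoxc10, a hindlimb gene, at 9.12 ± 1.90. Hoxa7 was next at 7.67 ± 0.70 TPM, then Hoxc6 at 5.55 ± 1.50 and Hoxc11 at 5.36 ± 0.16. From Hoxa10 down to Hoxc11 the WT ranges of each gene and the next overlapped, so that neighbours in this order were not told apart. The WT ranges of Hoxc11 and the next gene, Hoxc9 (4.40 ± 0.34 TPM), did not overlap. Nor did those of Hoxa11 (4.22 ± 0.57 TPM) and Hoxc4 (3.14 ± 0.27 TPM). These gaps are between neighbours only and do not divide the genes into tiers. Hoxc6, from 4.07 to 7.07 TPM in WT, overlapped both Hoxc9 and Hoxa11. From group 2 to group 6 the HoxA members were low, from Hoxa4 at 0.552 ± 0.27 TPM to Hoxa6 at 0.156 ± 0.072 TPM, whereas in HoxC the genes Hoxc4 and Hoxc6 stood among the higher members and Hoxc8, a gene of the brachial and thoracic level, was near the bottom at 0.233 ± 0.055 TPM. Across genes within WT, the level and the paralog group had a Spearman rho of 0.63 in HoxA (11 genes) and -0.017 in HoxC (9 genes), a description only, since neighbouring genes share libraries and regulatory sequence. In KO the same 4 genes led in the same order, while Hoxc13 went from rank 10 to rank 13 and Hoxc12 from 13 to 20. Other members moved as far as Hoxc13, with Hoxc6 from rank 5 to 8 and Hoxa11 from 8 to 5.

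In KO against WT, 4 expressed Hox genes passed the test, and 3 of these stood at the posterior ends of the clusters. Hoxc13 and Hoxc12, the last genes of HoxC, and Hoxa13, the last gene of HoxA, fell in KO, and Hoxa5, in the middle of HoxA, rose. The test was edgeR's quasi-likelihood test on the counts of all 14828 genes that passed its filter, with Benjamini-Hochberg adjustment over all of them and a threshold of 0.05. Of all genes tested, 22.7% were called (12.1% higher and 10.6% lower in KO), and 4 of 20 is close to that share, so the number of Hox genes called is not in itself a result about them. The median log2 fold change of the 20 was 0.029, beside 0.034 for all genes, with 10 positive and 10 negative. Without WT library 1 Hoxc13 alone was called, and without KO library 3 or WT library 3 Hoxc13 and Hoxc12 were. In bulk RNA, fewer cells that express a gene and less of its RNA per cell cannot be told apart.

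**Figure D2:**
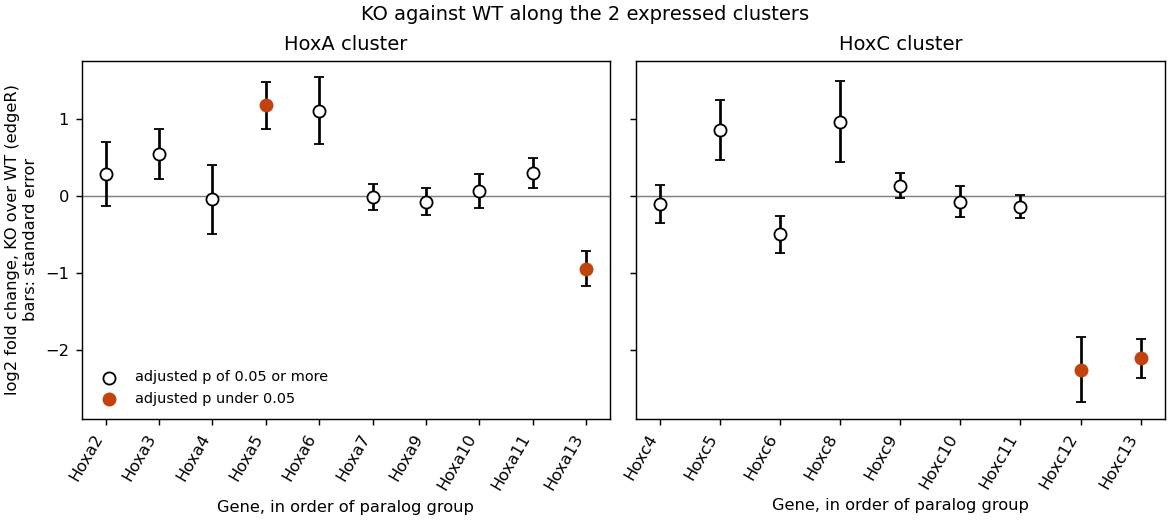
Log2 fold change of KO over WT from edgeR (points) with its standard error (bars) for 10 genes of HoxA and the 9 genes of HoxC, in order of paralog group; filled points passed an adjusted p of 0.05. Hoxc12, Hoxc13 and Hoxa13 lie below 0, Hoxa5 lies above it, and groups 9 to 11 lie within 0.30 of it in both clusters.

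Hoxc13, which in the body is known for its part in hair and nail formation, was at 2.43, 2.54 and 2.42 CPM in KO and at 13.5, 7.62 and 10.9 CPM in WT. The KO libraries lay close together and every WT library was above all of them. The log2 fold change was -2.11 (SE 0.25, adjusted p = 0.0026, edgeR), with WT 4.33-fold above KO, from 87 to 111 counts in the KO libraries and 250 to 466 in WT. Its call held under each of 12 other settings run on the counts, with adjusted p from 2.41e-12 to 0.0186 (edgeR or DESeq2).

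Hoxc12, the neighbour of Hoxc13 on the chromosome, was at 0.420, 0.229 and 0.195 CPM in KO and at 1.62, 1.40 and 1.02 CPM in WT. The groups did not overlap, but the KO values rest on 8 to 15 counts. The log2 fold change was -2.26 (SE 0.43, adjusted p = 0.0107, edgeR), and without WT library 1 the adjusted p was 0.0587.

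Hoxa13, a gene of the distal limb and the hindgut and urogenital tract, was at 3.11, 3.82 and 2.98 CPM in KO and at 6.85, 5.33 and 6.87 CPM in WT. The groups did not overlap, and the log2 fold change was -0.94 (SE 0.23, adjusted p = 0.0240, edgeR), from 111 to 255 counts. The call depended on single libraries, with an adjusted p of 0.0648 without KO library 3, 0.107 without WT library 1 and 0.0874 without WT library 3. The HoxB and HoxD members of the same paralog group, Hoxb13 and Hoxd13, were under the expression limit in both groups. The 2 expressed members of group 13 both fell, beside 10.6% of all genes called lower in KO. Group 13 was not tested as a set.

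Hoxa5, which acts at the cervical and upper thoracic level and in lung development, was at 1.73, 1.63 and 1.71 CPM in KO and at 0.810, 0.579 and 0.835 CPM in WT. All KO libraries lay above all WT libraries, and the log2 fold change was 1.18 (SE 0.31, adjusted p = 0.0299, edgeR), from 19 to 71 counts. This was the least stable of the 4 calls. The adjusted p was 0.0556 without KO library 2, 0.0644 without KO library 3, and 0.108, 0.0976 and 0.0941 without WT library 1, 2 and 3, with a log2 fold change of 1.03 to 1.25 throughout. The exons of all 4 called genes share no base with those of another gene in the GENCODE M21 annotation.

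**Figure D3:**
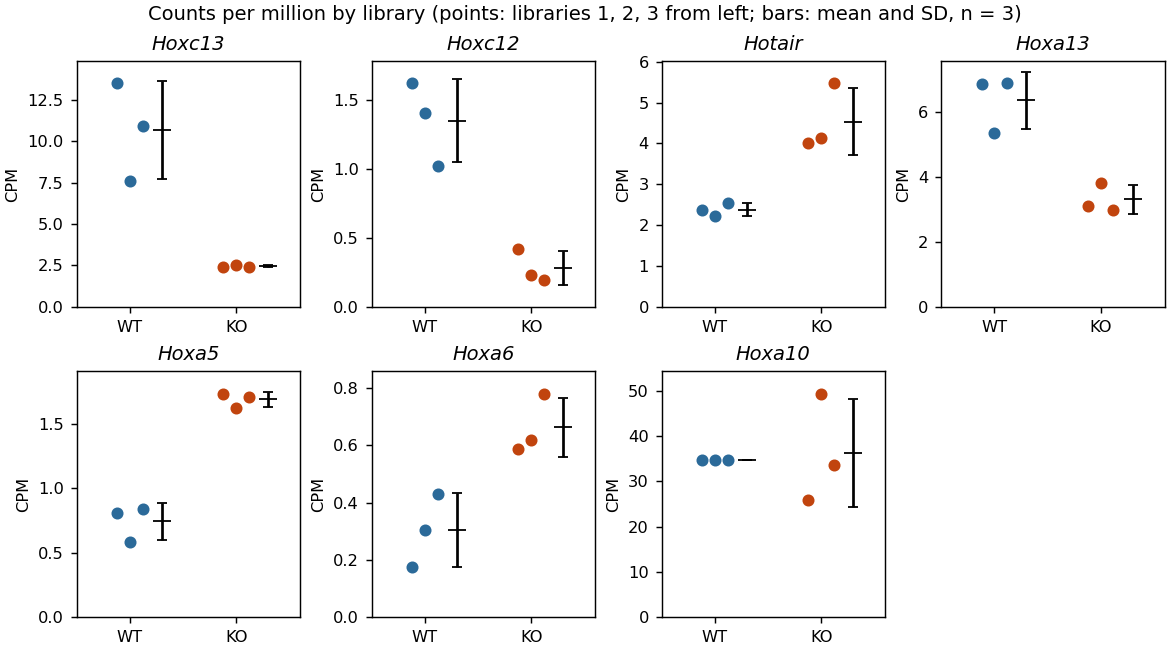
CPM in each library (points), with the mean and SD of the 3 libraries of each group (bars), for the 4 called Hox genes, the non-coding RNA Hotair, Hoxa6 and the highest member, Hoxa10. WT and KO do not overlap for the first 6 panels, and for Hoxa10 the KO libraries lie on both sides of WT.

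The upstream sequences of the called genes are shown where a RefSeq promoter entry was matched, which was the case for 22 of the 39 Hox genes and for Hoxa13 and Hoxa5 among the called ones. Hoxc12 and Hoxc13 had no entry. Below are the 250 bases before the start of Hoxa13 (chr6:52260881-52261130, minus strand), of Hoxa5 (chr6:52204588-52204837, minus strand) and, as a silent paralog of Hoxa13, of Hoxd13 (chr2:74667975-74668224, plus strand, ending 85 bases before the start in the files), all in GRCm38.p6 and written 5′ to 3′ in the direction of the gene. Capitals mark matches on either strand, overlaps included, to the TATA box TATAAA, the CCAAT box CCAAT, the GC box GGGCGG and TGATTNAT, an element bound by Pbx and Hox proteins together.
Hoxa13: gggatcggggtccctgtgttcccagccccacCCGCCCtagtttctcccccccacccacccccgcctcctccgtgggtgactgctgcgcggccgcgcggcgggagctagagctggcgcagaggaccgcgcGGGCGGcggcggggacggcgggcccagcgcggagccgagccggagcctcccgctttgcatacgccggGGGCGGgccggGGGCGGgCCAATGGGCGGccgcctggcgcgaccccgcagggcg
Hoxa5: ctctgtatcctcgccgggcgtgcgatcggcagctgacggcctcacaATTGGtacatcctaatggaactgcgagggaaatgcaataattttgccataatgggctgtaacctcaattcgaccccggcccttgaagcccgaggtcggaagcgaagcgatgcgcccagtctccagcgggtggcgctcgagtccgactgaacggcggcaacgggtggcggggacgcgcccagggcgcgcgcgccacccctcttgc
Hoxd13: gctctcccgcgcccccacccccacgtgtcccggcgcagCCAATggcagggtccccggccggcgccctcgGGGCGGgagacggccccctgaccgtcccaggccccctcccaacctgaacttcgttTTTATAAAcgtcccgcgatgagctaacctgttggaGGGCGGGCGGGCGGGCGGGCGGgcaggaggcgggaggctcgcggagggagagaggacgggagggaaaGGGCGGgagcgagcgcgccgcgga
Hoxa13 and Hoxa5, which moved in opposite directions, both start in CpG-rich sequence without a TATA box match. The Hoxa13 window had 80.0% G and C and 35 CpG dinucleotides, and the Hoxa5 window 63.6% and 28, beside a median of 52.4% and 6 over the 32536 windows of the table. Hoxd13 had 74.4% and 31, so that the silent paralog was CpG-rich as well. Hoxa13 had 5 GC box matches and 1 CCAAT match, Hoxa5 had 1 CCAAT match and no other, and Hoxd13 had 7 GC box, 2 TATA box and 1 CCAAT matches. Of all windows, 33.0% held a GC box match, 33.8% a CCAAT match, 12.3% a TATA box match and 2.8% a TGATTNAT match. These are matches of letters and not measured binding.

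The 6 members of paralog groups 9 to 11 in HoxA and HoxC had log2 fold changes from -0.13 to 0.30 with SE from 0.14 to 0.22 and adjusted p from 0.282 to 0.851, and edgeR and DESeq2 called 0 of them, with 0 also at an unadjusted p under 0.05, beside 22.7% of all genes called by edgeR, so that a count this small is no result about these members. Hoxa10, the highest member of HoxA, was at 25.9, 49.4 and 33.7 CPM in KO and at 34.8, 34.8 and 34.7 CPM in WT. The WT libraries were almost equal and the KO libraries scattered around them, with a log2 fold change of 0.065 (SE 0.22). Hoxc10, the highest member of HoxC, was at 20.5, 20.5 and 15.6 CPM in KO and at 24.7, 17.2 and 17.5 CPM in WT, with a log2 fold change of -0.070 (SE 0.20).

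Of the 6 members of groups 5 to 8, 1 (Hoxa5) was called, a share close to the 22.7% of all genes. Hoxa6, directly next to Hoxa5, was at 0.588, 0.618 and 0.781 CPM in KO and 0.174, 0.305 and 0.431 CPM in WT, with all KO libraries above WT and a log2 fold change of 1.12 (SE 0.43, adjusted p = 0.0983, edgeR). Altogether 6 of the 20 expressed members had groups that did not overlap, 3 higher and 3 lower in KO, beside 44.3% of all genes tested.

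Paralogs of the same group in HoxA and HoxC can be set side by side. In group 13 both members fell, Hoxa13 by 0.94 and Hoxc13 by 2.11 on the log2 scale. In group 5 the log2 fold change was 1.18 for Hoxa5 and 0.86 for Hoxc5 (adjusted p = 0.146, edgeR). In group 6 the signs differed, with 1.12 for Hoxa6 and -0.50 for Hoxc6 (adjusted p = 0.171, edgeR), neither of them past the threshold. In groups 4, 9, 10 and 11 the larger value of either sign was 0.30, for Hoxa11. Other members were Hoxa2 (0.29), Hoxa3 (0.55), Hoxa7 (-0.0083) and Hoxc8 (0.97, with KO libraries from 0.700 to 2.69 CPM), none of them called. Across genes, the log2 fold change and the paralog group had a Spearman rho of -0.49 in HoxA (11 genes) and -0.57 in HoxC (9 genes), given as a description.

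Some members share exonic sequence with other genes, which matters because the strand setting of the counting is not given in the sources used here. Antisense exons cover 35.0% of the exonic sequence of Hoxa11 (Hoxa11os), 25.4% of Hoxa3, 20.4% of Hoxa7 (Hoxaas3) and 16.0% of Hoxa4. On the same strand, Hoxa2 shares 15.0% and Hoxa3 8.0% of theirs with Gm28308. Hoxc5 and Hoxc10 share 5.37% and 8.70% of theirs with each other, also on the same strand. Reads of these genes and their partners may be mixed, and none of these members passed the test.

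Summed over a cluster, the RNA output did not separate the groups. HoxA summed to 28.6, 50.1 and 40.1 TPM in KO and to 39.7, 37.9 and 37.5 TPM in WT, with the KO libraries on both sides of WT. HoxC summed to 27.4, 28.5 and 30.2 TPM in KO and to 37.9, 29.1 and 30.3 TPM in WT, so that KO library 3 lay within the WT range. On TPM, tested with limma on log2(TPM + 1), 12 Hox genes passed the filter of at least 1 TPM in 3 libraries and 2 were called, beside 20.5% of all 11691 genes. These were Hoxc13 (-1.22, SE 0.17, adjusted p = 0.00309, limma) and Hoxa13 (-0.47, SE 0.14, adjusted p = 0.0471, limma), on a scale that understates changes of low genes. Both passed that filter only through their WT libraries, so their share of the 12 is not read as a result, and the Hoxa13 call on TPM was lost in each of 5 other TPM settings (adjusted p = 0.0517 to 0.0910, limma).

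The clusters also hold non-coding RNAs. From a list of RNAs named for the clusters, edgeR tested 5 and called 1, Hotair, a share close to the 22.7% of all genes called. Hotair is a long non-coding RNA transcribed against the direction of HoxC between Hoxc12 and Hoxc11 (chr15:102944062-102947730, in the coordinates of the files) and is known for reported binding to Polycomb proteins. It was at 4.001, 4.12 and 5.47 CPM in KO and at 2.37, 2.22 and 2.53 CPM in WT, with all KO libraries above WT. The log2 fold change was 0.93 (SE 0.24, adjusted p = 0.0307, edgeR), opposite in sign to Hoxc12 and Hoxc13 on one side of it and beside -0.13 for Hoxc11 on the other. The adjusted p was 0.0818 without KO library 3 and 0.121, 0.0915 and 0.0988 without WT library 1, 2 and 3. Of the 17 RNAs on that list with counts given, edgeR tested 5. The others of these, not called, were Hotairm1 (-0.53), Hoxa11os (-0.18), Hoxaas2 (-1.14) and Hoxaas3 (0.12). Outside that list, edgeR tested further non-coding transcripts inside HoxA and HoxC and called none (adjusted p from 0.0892 to 0.776, edgeR). These were Gm15050 (-0.76), Gm27477 (1.20), Gm27817 (-0.16), Gm28011 (0.45), Gm27535 (0.54) and the unclassified 9530018H14Rik (-0.89). Hottip, which lies beyond Hoxa13, had 4 counts in WT library 2 and 0 elsewhere, and the microRNA genes Mir10a, Mir10b, Mir196a-1 and Mir196b had 0 in every library. Mir196a-2 had at most 4 counts in a library and Mir615 at most 1. These are counts in total RNA, and mature microRNAs were not measured separately.

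Genes around the clusters were compared as well, with 22.7% of all genes called as the background. Hnrnpa2b1 lies on the same chromosome as HoxA, 686 kb from the cluster (chr6:51460434-51469894 against chr6:52155590-52260880). Of the genes within 500 kb of HoxA outside the cluster, 4 were tested and edgeR and DESeq2 called 0, with 0 at an unadjusted p under 0.05 and a median log2 fold change of -0.18. Around HoxC 4 of 20 were higher and 0 lower in edgeR, with a median of 0.052, a share close to that background, and these were Prr13 (1.24), Hnrnpa1 (0.81), Map3k12 (0.76) and Gm26518 (1.14). Around HoxD, whose own genes were silent, 2 of 4 fell, which were Lnp (-0.70) and the pseudogene Rps6-ps4 (-0.72), and around HoxB edgeR called 0 of 12, with 2 at an unadjusted p under 0.05 and 2 called by DESeq2. Over the wider 10 Mb stretches that hold the clusters, the median log2 fold change was 0.016 for HoxA (53 genes), 0.075 for HoxB (108 genes), 0.046 for HoxC (57 genes) and -0.14 for HoxD (54 genes).

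Among the 10 TALE cofactors reported here, Meis3 rose and Pknox2 fell, beside calls for 22.7% of all genes. Meis3, a hindbrain cofactor, was at 5.57, 7.28 and 7.10 CPM in KO and at 2.20, 1.28 and 1.86 CPM in WT, a log2 fold change of 1.90 (SE 0.28, adjusted p = 0.0050, edgeR). Pknox2, a partner of Pbx proteins, fell from 18.4, 21.7 and 17.1 CPM in WT to 8.65, 4.72 and 6.64 CPM in KO, by 1.51 on the log2 scale (SE 0.24, adjusted p = 0.0061, edgeR). The groups did not overlap for either gene. Meis1 and Meis2, the more abundant Meis genes, had log2 fold changes of -0.40 and -0.60 (adjusted p = 0.0921 and 0.107, edgeR).

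Of the chromatin regulators that keep Hox clusters silent or active, 5 of 30 Polycomb genes and 0 of 12 trithorax and H3K27 demethylase genes passed the test, beside 22.7% of all genes. In the Polycomb list, whose median log2 fold change was -0.0040, Jarid2, an accessory subunit of the H3K27 methyltransferase complex PRC2, fell from 61.2, 44.4 and 53.8 CPM in WT to 20.2, 25.3 and 26.7 CPM in KO, by 1.14 on the log2 scale (SE 0.17, adjusted p = 0.0052, edgeR). The chromobox proteins of PRC1 went opposite ways, Cbx6 rising by 1.37 (adjusted p = 0.0028, edgeR) and Cbx2 falling by 0.68 (adjusted p = 0.0230, edgeR). The PRC1 subunits Bmi1 (0.57) and Yaf2 (-0.57) also passed. Without WT library 1 the adjusted p was 0.0801 for Cbx2, 0.139 for Bmi1 and 0.121 for Yaf2, and each was also lost without KO library 3 or WT library 3. The number of Polycomb genes called ranged from 2, without WT library 1 or 3, to 7, without KO library 1. The PRC2 core genes Ezh2 (0.25), Eed (-0.19) and Suz12 (0.069) were not called. In the trithorax list edgeR and DESeq2 called 0 of 12, 2 had an unadjusted p under 0.05 in edgeR, and the median was 0.050. Without KO library 1, edgeR called 1.

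**Figure D4:**
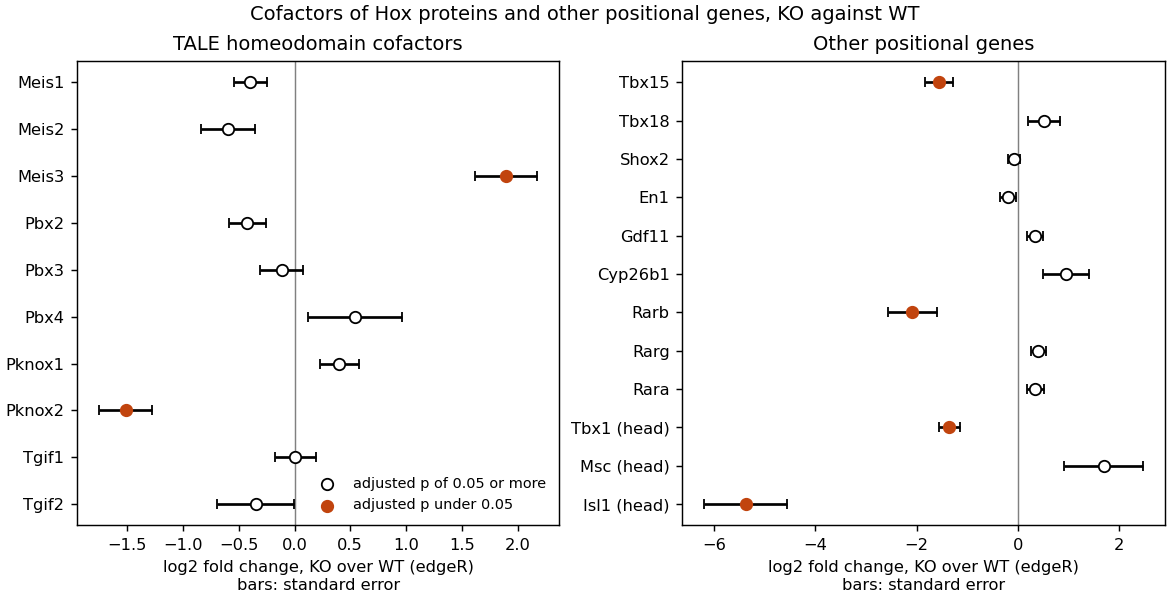
Log2 fold change of KO over WT from edgeR (points) with its standard error (bars) for 10 TALE cofactors and for tested genes of the limb, axial and head muscle lists; filled points passed an adjusted p of 0.05. Meis3 lies above 0 and Pknox2 below it, and Tbx15, Rarb, Tbx1 and Isl1 lie below it.

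Of 19 limb and axial genes 9 were tested, and 2 fell and 0 rose, a share close to the 22.7% of all genes called, with a median log2 fold change of 0.33. Tbx15, a T-box gene of the limb and trunk that acts in skeletal and muscle development, was at 81.5, 67.3 and 50.6 CPM in KO and at 214, 125 and 245 CPM in WT, a log2 fold change of -1.55 (SE 0.28, adjusted p = 0.0089, edgeR). Rarb, a receptor and target of retinoic acid, the signal that switches on anterior Hox genes, was at 0.252, 0.389 and 0.684 CPM in KO and at 1.50, 2.83 and 1.35 CPM in WT (log2 fold change -2.09, SE 0.49, adjusted p = 0.0217, edgeR). The Rarb call was lost without KO library 2 (adjusted p = 0.0563) and without WT library 1, 2 or 3 (0.0633, 0.0691 and 0.0505). Rara and Rarg, the other receptors, had log2 fold changes of 0.34 and 0.40 (adjusted p = 0.171 and 0.0831, edgeR). The forelimb gene Tbx5 had 0 counts in every library and the hindlimb gene Pitx1 at most 1, while Tbx4, another hindlimb gene, had 16 counts in KO library 1 and at most 2 elsewhere.

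Of 5 head muscle genes 4 were tested, and 3 fell and 0 rose in edgeR, beside 22.7% of all genes called. The list is short and was not tested as a set. Of the head muscle genes reported here, Tbx1 and Isl1 fell. Tbx1 was at 14.3, 12.2 and 9.28 CPM in KO and at 34.8, 24.5 and 32.3 CPM in WT (log2 fold change -1.36, SE 0.21, adjusted p = 0.0058, edgeR). Isl1, a LIM-homeobox gene of pharyngeal and heart progenitors and of motor neurons, was at 0.448, 0.0687 and 0.0244 CPM in KO and at 4.34, 10.8 and 6.68 CPM in WT (adjusted p = 0.0054, edgeR), with KO libraries at only 1 to 16 counts. Msc, with a log2 fold change of 1.69, was not called (adjusted p = 0.146, edgeR), and Tcf21 had 0 counts.

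Markers of muscle and of other lineages were summed in each library. The 10 skeletal muscle markers summed to 15120, 7274 and 6778 CPM in KO and to 14120, 12390 and 15790 CPM in WT, so that the groups overlapped. In edgeR 3 of the 10 passed the test, close to the 22.7% of all genes called, with log2 fold changes of 0.99 for Myod1, 0.70 for Cdh15 and -1.50 for Myf5. DESeq2 called 5 of the 10, with 4373 genes called in all. On TPM limma called 5 of the 10, beside 20.5% of all genes. The 4 fibro-adipogenic markers summed to 53.2 to 157 CPM in KO and to 18.8 to 32.5 CPM in WT, with Ly6a (2.76) and Pdgfra (1.17) called. The 3 Schwann or neural markers summed to 12 to 28.5 CPM in KO and to 2.03 to 3.29 CPM in WT, nearly all of it Tubb3 (2.76), while Sox10 had at most 10 counts. The 3 endothelial markers summed to at most 0.674 CPM in any library, the 3 immune markers to at most 3.41 and the 2 smooth muscle markers to at most 1.90. The part of these marker levels in the Hox results was not tested.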

How the data were processed

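Total RNA was depleted of ribosomal RNA and sequenced, and the authors deposited a merged table of gene counts and, per library, TPM values (with FPKM and coverage signal columns, not used here). The labels name FastQC, Trim Galore, STAR, featureCounts, StringTie and Salmon with build mm9, the methods name GRCm39, and the start and end of 83.2% of 45137 genes equal those of GRCm38 in GENCODE M21. Coordinates are printed as the files give them. Counts were tested with edgeR 4.0.16 in R 4.3.3 (TMM factors 0.949 to 1.08, filterByExpr, quasi-likelihood, genotype as the only term), as CPM on TMM-scaled library sizes. Alternatives were DESeq2 1.42.0, other scalings and filters, a replicate block, each library left out, and limma 3.58.1 on log2(TPM + 1), with a pseudocount of 1. Scripts were tested on simulated data. A count of 0 was read as allowing up to 3 counts, which covers counting error only. Genes were named by a rule: every library's value for members called, for members whose groups do not overlap at a log2 fold change of 1 or more, and for the highest member by mean TPM in each expressed cluster, with called genes of the other lists. Some genes that the counts include are not reported here. The members and lists were chosen with earlier results of these data known.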

Additional observations from a re-analysis of the deposited data

How the results depend on the processing

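The count of Hox genes called was 4 in edgeR, with DESeq2, with DESeq2's size factors, with upper-quartile factors and with a filter of 10 counts in 3 libraries, and 3 with no filter on low counts (Hoxa5 lost). In edgeR with each library left out it ranged from 1 to 4, with 1 (Hoxc13) without WT library 1. On TPM it was 2 (Hoxc13 and Hoxa13), 2 with no filter (Hoxc13 and Hoxa5), 1 with a pseudocount of 0.1 (Hoxc13), 1 without KO library 2 or 3 (Hoxc13), 2 without KO library 1 (Hoxc13 and Hoxc5) and 0 without WT library 1, 2 or 3, where Hoxc13 and Hoxa13 no longer passed the TPM filter. Over all genes the calls ranged from 933 (without WT library 1) to 4712 (without KO library 1) when a library was left out. On TPM they were 2394, 1075 with no filter and 484 to 3156 with a library left out. The Hox genes counted as expressed numbered 18 to 21 under the other limits. The cause of these shifts was not tested.

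Replicate numbers are shared between KO and WT. Same-numbered libraries correlated at 0.137, -0.116 and 0.0041 in their deviations, beside -0.335 to 0.28 for libraries with different numbers. These values gave no sign that the numbers pair the libraries, but so few values cannot exclude a pairing. With the replicate block 2 Hox genes were called (Hoxc12 and Hoxc13) and 2520 genes in all, and Hoxa13, Hoxa5 and Hotair had adjusted p of 0.0584, 0.0588 and 0.0585 (edgeR).

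Members near 0 changed sign in some settings, none of them called: Hoxa7 (0.024 with upper-quartile factors, 0.0042 on TPM) and, with a library left out, Hoxa4 (-0.44 to 0.21), Hoxa7 (-0.11 to 0.12), Hoxa9 (-0.26 to 0.037), Hoxa10 (-0.22 to 0.25), Hoxc4 (-0.39 to 0.054) and Hoxc10 (-0.18 to 0.11). No scaling moved the median of all genes by over 0.1. Counts under about 10 in a library, as in Hoxc12 in KO, limit what can be said of the lowest members.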

Other observations

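KO library 1 differed from the other 5 in several genes at low counts, and in Dcn, which was not at low counts. It held 32 HoxB counts, against 1 to 4 in each of the others, mostly from Hoxb13 (13), Hoxb9 (8) and Hoxb4 (6). Lbx1, a homeobox gene of migrating limb muscle precursors, had 38 counts there and at most 1 elsewhere, and Tbx4 had 16. The matrix genes Dcn and Lum were at 90.6 CPM and 86 counts there, with Dcn at 7.01 to 17.7 CPM and Lum at 3 to 11 counts in the other libraries. The non-coding RNA Halr1 next to HoxA had 9 counts there and at most 3 elsewhere.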
